A study of Rattus norvegicus with 4 samples.

Results

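The genes described here encode the scaffold proteins of the postsynaptic density in rat hippocampus: Dlg1, Dlg2, Dlg3, Dlg4, Dlgap1, Shank1, Shank2, Shank3 and Homer1. They were chosen by name as the layers of the scaffold that hold glutamate receptors in place, and every probe of the array whose accession resolved to one of these symbols was taken. This gave 11 probes for the 9 genes, of 41012 noncontrol probes and of 10768 probes (8899 genes) that could be named at all. None of the 9 scaffold genes passed the fold and p cutoffs of the study in either running group, when both were required on each chip, a rule set here. Of all probes only 0.0317% passed in wheel running and 0.0585% in resistance wheel running, so this count is not particular to the scaffold. The one member whose 95% interval from the error model of the scanner software left out 0 was Dlg1, which encodes SAP97. It stood at 0.782-fold of the sedentary level in resistance wheel running, on 1 spot per chip. Its chips, with the dyes exchanged, gave unequal log2 ratios of -0.60 and -0.11. With other background corrections the mean was smaller in size, and an interval of the same width around it would span 0. In resistance wheel running the error-model interval lay wholly below 0 at 0.521% and above 0 at 0.369% of the probes above background. Homer1 was the only one of the 9 genes that read higher on all 4 chips, by 3.09% in wheel running and 5.13% in resistance wheel running. Both of its error-model intervals spanned 0. Of the probes above background, 14.5% were higher on both chips in wheel running and 16.7% in resistance wheel running. Other postsynaptic genes, named here after their values were seen, also read higher on all 4 chips: Lgi1, Cnksr2, Cttn, Wasf1 and Grip1. Nsf read lower on all 4.

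The rats were male Wistar rats, 10 weeks old at the start. They were kept sedentary in standard cages (Sed, 10 rats), given free access to a running wheel with no resistance (WR, 8 rats), or given a wheel whose load was raised from 4.5 g in the first week to 30% of body weight (RWR, 8 rats), for 4 weeks. Hippocampal RNA of a group was pooled, so each group is 1 biological sample. The methods describe pooling an equal amount of RNA from each replicate. Which of the rats these replicates were was not given in the sources used here, so a pool need not hold all rats of its group. Each running pool was hybridised together with the sedentary pool on a pair of 2-colour Agilent arrays with the dyes exchanged: the WR pool was in Cy5 on chip 1 and in Cy3 on chip 2, and the RWR pool was in Cy5 on chip 3 and in Cy3 on chip 4. A pair thus measured the same RNA again with the other dye, no test between conditions is possible, and the spread between rats is unknown. Both comparisons use the sedentary pool, so they are not independent of each other.

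The postsynaptic density is the protein sheet under the membrane of an excitatory synapse. Its outer layer is built of the Dlg proteins, membrane-associated guanylate kinases (MAGUKs) whose PDZ domains bind NMDA receptors, AMPA receptor partners and adhesion molecules. Dlgap1 (GKAP, or SAPAP1) binds the guanylate kinase domain of these proteins on one side and the PDZ domain of Shank proteins on the other. Shank proteins form the deep layer, and Homer proteins link them to group I metabotropic glutamate receptors and to calcium channels of the endoplasmic reticulum. In the hippocampus this scaffold sets how many receptors a spine can hold and takes part in long-term potentiation.

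Across the 4 chips, 43379 spots were read on each, none was saturated, and 118 to 140 were flagged as outliers. In Cy3 67.5 to 77.6% and in Cy5 71.7 to 82.5% of the spots stood well above background, and all 11 scaffold probes did so in both dyes on every chip. After the ratios of each pair had been turned to running over sedentary, the chips of a pair were negatively correlated over all probes (r = -0.761 for WR and -0.686 for RWR), and still so over the 24957 probes above background in both dyes on all chips (r = -0.677 and -0.581). A probe that read higher in Cy5 on one chip thus tended to do so on its partner too, whichever pool carried Cy5, and the mean of a pair cancels a dye effect only as far as it is equal on both chips. The direction of each ratio follows the dyes named in the labels and methods. Labels exchanged on one chip of a pair would also give a negative correlation, would turn the ratios of that chip and would change every pair mean, and this cannot be told apart from a dye effect here. Of the 12 listed markers of hippocampal neurons 6 could be named on the array, and Neurod2, Wfs1, Calb1, Camk2a and Slc17a7 stood above background in both dyes. These 5 had medians of 0.03 (WR) and 0.0098 (RWR) on the log2 scale.

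The values below are processed signals in the intensity units of the scanner software, corrected there for background and dye, and log2 ratios of running over sedentary. A probe's brightness depends on its sequence, so signals are compared only between pools at the same probe. The interval given with a mean of 2 chips is a 95% interval from the error that the software attached to each ratio. It covers only the measurement error that the software models on each chip. The split between the chips of a pair, which holds the dye effect, could be wider. At the brighter Dlg4 probe in WR each chip lay 0.50 from the pair mean, whose error was 0.149. The ratios of the single chips, or their distance from the mean of the pair, are therefore given beside the interval.

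**Figure D1:**
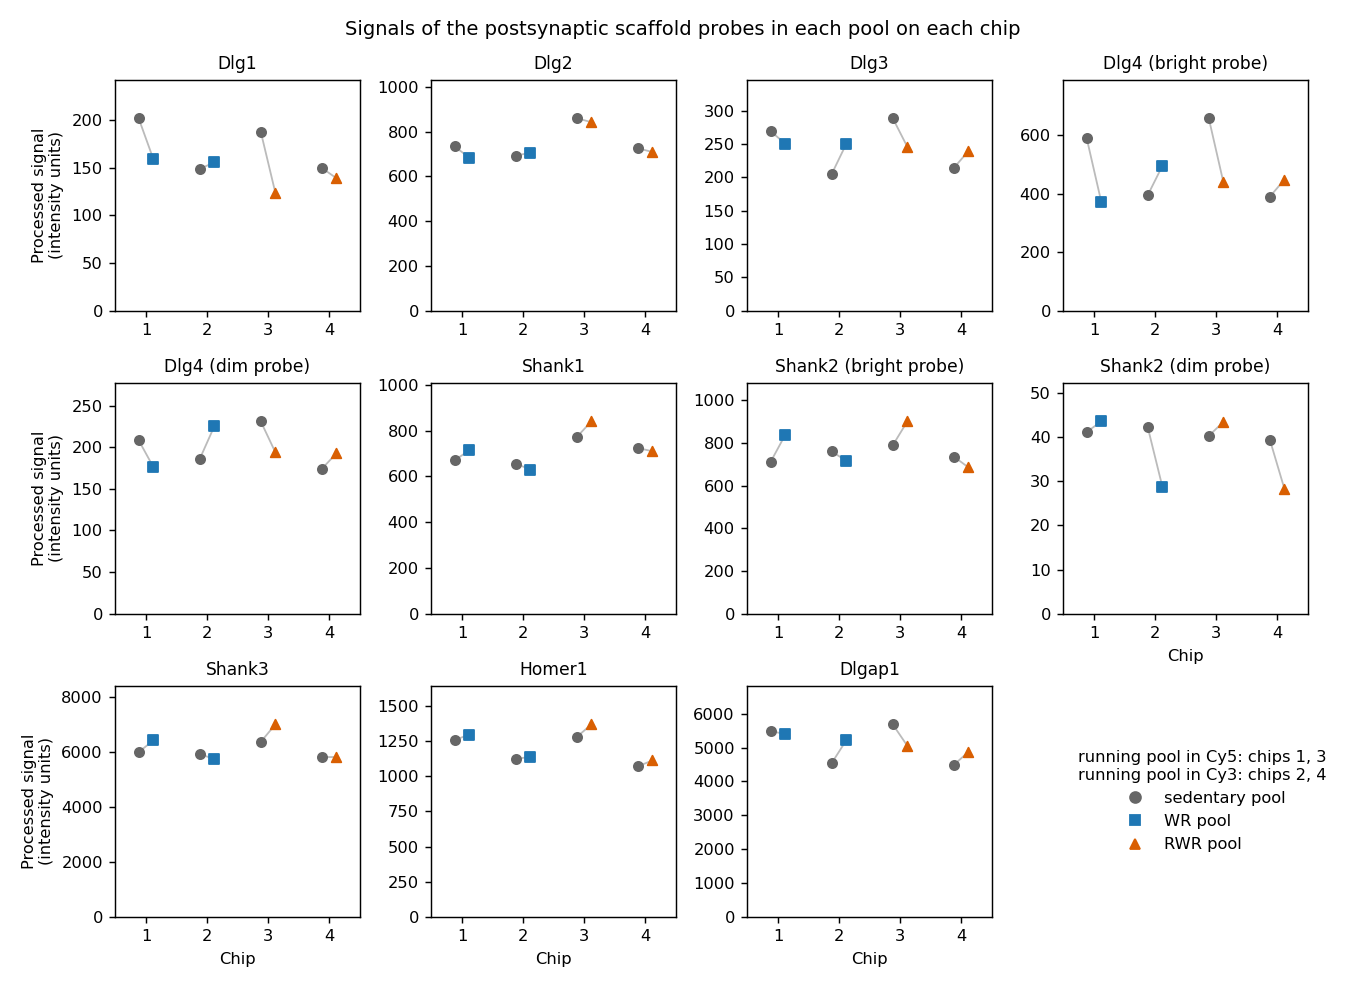
Processed signal (intensity units, linear axis from 0) of each of the 11 scaffold probes in the sedentary pool (grey circles), the WR pool (blue squares) and the RWR pool (orange triangles) on the 4 chips, with a line joining the pools that shared a chip. For Dlg4 and Dlg3 the lines slope down on chips 1 and 3 and up on chips 2 and 4, whereas the RWR triangles of Dlg1 lie below all 4 grey circles.

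Dlg4 encodes PSD-95, the main MAGUK of the mature excitatory synapse. Its brighter probe was printed in 10 spots. The median signal went from 591 in the sedentary pool to 372 in the WR pool on chip 1 and from 395 to 495 on chip 2, where 1 spot was flagged and left out. With RWR it went from 659 to 439 on chip 3 and from 390.05 to 449 on chip 4. Running read lower when it was in Cy5 and higher when it was in Cy3, and the running and sedentary signals overlapped in both comparisons.

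The log2 ratios of this Dlg4 probe were -0.68 and 0.33 in WR, with a mean of -0.17 (interval -0.46 to 0.12), and -0.61 and 0.23 in RWR, with a mean of -0.19 (interval -0.48 to 0.10). Each chip lay 0.50 from the mean of its pair in WR and 0.42 in RWR, and 4.78% and 5.31% of the probes above background had a wider split. The error-model p of this probe was 0.00151 on chip 1 and 0.00493 on chip 3, while the ratios of their dye-swapped partners were above 0.

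Within each chip the printed spots of Dlg4 lay close together. On chip 1 all 10 spots were lower in WR (-0.74 to -0.61) and on chip 2 all 9 used spots were higher (0.28 to 0.37). On chip 3 all 10 were lower in RWR (-0.69 to -0.50) and on chip 4 all 10 were higher (0.16 to 0.30). The standard deviation over the spots of a chip was 0.033 to 0.057, many times smaller than the distance between the chips. A dimmer Dlg4 probe with 1 spot per chip split the same way, with log2 ratios of -0.24 and 0.28 in WR and -0.25 and 0.15 in RWR. Its means were 0.02 in WR (interval -0.27 to 0.31) and -0.05 in RWR (interval -0.34 to 0.24), nearer to 0 than those of the bright probe, which lay within these intervals.

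Dlg2 (PSD-93), the close relative of PSD-95, gave signals of 734 to 684 and 693 to 706 from sedentary to WR, and of 860.5 to 843 and 726 to 709 from sedentary to RWR. Its log2 ratios were -0.10 and 0.03 in WR (mean -0.04, interval -0.32 to 0.25) and -0.03 and -0.03 in RWR (mean -0.03, interval -0.32 to 0.25). In RWR the chips lay 0.0020 from their mean, closer together than at 98.9% of the probes above background, and RWR signals fell within the sedentary range.

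Dlg3 (SAP102), the MAGUK that is prominent at developing synapses, gave signals of 269 to 250.3 and 205 to 250.4 in WR and of 289 to 246 and 214 to 239 in RWR. The running signals lay within the range of the 4 sedentary signals in both groups. The mean log2 ratio was 0.09 in WR (chips -0.11 and 0.29, interval -0.20 to 0.38) and -0.04 in RWR (chips -0.23 and 0.16, interval -0.32 to 0.25). As for Dlg4, the sign of the ratio followed the dye of the running pool.

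Dlg1 (SAP97) takes part in the traffic of AMPA receptors and is also made outside neurons. In WR its signal went from 202 to 159 on chip 1 and from 149 to 156 on chip 2, within the sedentary range. In RWR it went from 188 to 124 on chip 3 and from 149.8 to 139 on chip 4. Both RWR signals (124 and 139) were below all 4 sedentary signals (149 to 202), so RWR and Sed did not overlap, whereas WR and Sed did. Dlg1 was 1 of 9 genes without overlap in RWR, and there were 0 of 9 in WR, against 2.87% and 4.78% of the probes above background.

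The log2 ratios of Dlg1 were -0.60 and -0.11 in RWR, with a mean of -0.36 (0.782-fold, interval -0.65 to -0.06). The error-model p was 0.00559 on chip 3 and 0.616 on chip 4, and the chips lay 0.25 from their mean. Of the probes above background, 0.865% had a larger absolute mean in RWR, and the interval lay wholly below 0 at 0.521% and above 0 at 0.369% of them. In WR no scaffold gene had an interval off 0, against 0.361% of these probes below and 0.26% above. The WR ratios of Dlg1 were -0.34 and 0.06, with a mean of -0.14 (interval -0.44 to 0.16). The RWR ratio stayed below 0 with either chip left out (-0.60 to -0.11). It was smaller in size when the spot signals were normalised by loess, -0.22 with normexp and -0.18 with no background correction. The error-model interval belongs to the ratios of the scanner software. Both loess values are smaller in size than 1.96 times the error of that pair mean (0.153). An interval of the same width around either of them would span 0. The RWR ratio rests on 1 probe with 1 spot per chip.

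In bulk tissue, fewer cells of a type and less RNA per cell cannot be told apart. The oligodendrocyte markers Mbp, Mog, Mobp and Cnp, all 4 above background, had mean log2 ratios of -0.24 to -0.02 in RWR and of -0.08 to -0.05 in WR. Their summed signal was 15583 to 19165 in Sed and 14493 to 16125 in RWR on chips 3 and 4. The 5 astrocyte markers had medians of 0.0084 in WR and -0.00086 in RWR. The part of these cells in the Dlg1 ratio was not tested.

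**Figure D2:**
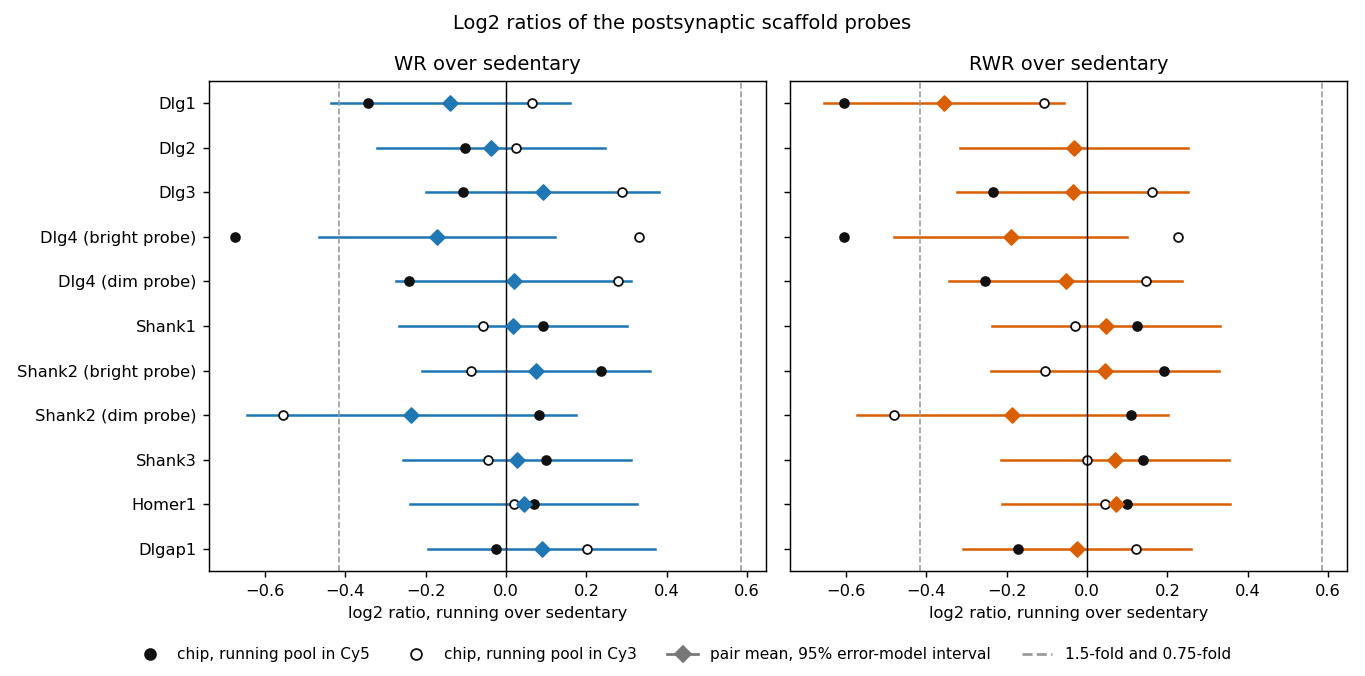
Log2 ratio of running over sedentary (x axis) of each scaffold probe in WR (left) and RWR (right), with filled circles for the chip that had running in Cy5, open circles for the chip that had it in Cy3, and diamonds with bars for the mean of the pair and its 95% error-model interval. The bar of Dlg1 in RWR (-0.65 to -0.06) is the only one that does not cross 0, the circles of Dlg2 in RWR lie under its diamond, and no probe has both circles beyond the dashed lines at 1.5-fold and 0.75-fold.

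Dlgap1, the adaptor between the MAGUK layer and the Shank layer, gave signals of 5491 to 5401 and 4543 to 5221 from sedentary to WR. From sedentary to RWR it went from 5688 to 5052 and from 4487 to 4879.8. All running signals lay within the sedentary range of 4487 to 5688. The mean log2 ratio was 0.09 in WR (chips -0.02 and 0.20, interval -0.19 to 0.37) and -0.02 in RWR (chips -0.17 and 0.12, interval -0.31 to 0.26). With loess after normexp or after no background correction, the RWR mean turned to 0.01 and 0.02.

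Shank1, which is found mainly in brain and enlarges spine heads, gave signals of 669.9 to 714 and 656 to 629.7 in WR and of 771 to 840.3 and 724 to 709 in RWR. The mean log2 ratio was 0.02 in WR (chips 0.09 and -0.06, interval -0.27 to 0.30) and 0.05 in RWR (chips 0.12 and -0.03, interval -0.24 to 0.33). The running and sedentary signals overlapped in both groups, and the WR mean turned to -0.0021 and -0.0061 with the loess alternatives.

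Shank3, the member whose loss is known from Phelan-McDermid syndrome, gave signals of 6001 to 6430.0 and 5936 to 5750.4 in WR and of 6375 to 7015 and 5822 to 5826 in RWR. The mean log2 ratio was 0.03 in WR (chips 0.10 and -0.05, interval -0.26 to 0.31) and 0.07 in RWR (chips 0.14 and 0.00084, interval -0.21 to 0.35). RWR was thus higher than sedentary on both chips, on one of them by less than 0.001 on the log2 scale.

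Shank2 was read by probes of 2 RefSeq transcripts. The brighter one gave signals of 712 to 839 and 760.3 to 716 in WR and of 789 to 902 and 736 to 685 in RWR. Its mean log2 ratio was 0.08 in WR (chips 0.24 and -0.09, interval -0.21 to 0.36) and 0.04 in RWR (chips 0.19 and -0.10, interval -0.24 to 0.33). Running read higher in Cy5 and lower in Cy3, the reverse of the Dlg4 pattern.

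The dimmer Shank2 probe gave signals of 41.1 to 43.5 and 42.2 to 28.8 in WR and of 40.2 to 43.4 and 39.4 to 28.2 in RWR. The log2 ratios were 0.08 and -0.55 in WR (mean -0.24, interval -0.65 to 0.17) and 0.11 and -0.48 in RWR (mean -0.19, interval -0.57 to 0.20). The low values came from the chips with running in Cy3 alone, where the error-model p was 0.0560 and 0.107. With the median over both probes in place of the brighter one, Shank2 turned from above to below 0 in both groups (-0.08 in WR and -0.07 in RWR).

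Homer1 gives rise to long scaffold forms and to a short form that is made after synaptic activity and uncouples them. Which of these the probe binds was not analysed here. Its probe was printed in 10 spots, 1 of which was flagged on chip 1. The median signal went from 1258 to 1296 and from 1121 to 1139.8 in WR and from 1279 to 1369 and from 1069.98 to 1112 in RWR. The running pool was higher on each of the 4 chips, but the running signals overlapped those of the sedentary pool, which ranged from 1069.98 to 1279 between chips.

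The log2 ratios of Homer1 were 0.07 and 0.02 in WR (mean 0.04, interval -0.24 to 0.33) and 0.10 and 0.04 in RWR (mean 0.07, interval -0.21 to 0.36). On chip 1, 9 of 9 used spots were higher in the running pool (0.04 to 0.10), on chip 2, 8 of 10 (-0.04 to 0.06), on chip 3, 10 of 10 (0.07 to 0.14), and on chip 4, 9 of 10 (-0.01 to 0.07). The standard deviation over spots was 0.021 to 0.030, and the error of the pair mean from the spots alone was 0.0059 in WR and 0.0056 in RWR. A shift of this size was common on the array: 55.5% of the probes above background had a larger absolute mean in WR and 39.6% in RWR.

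**Figure D3:**
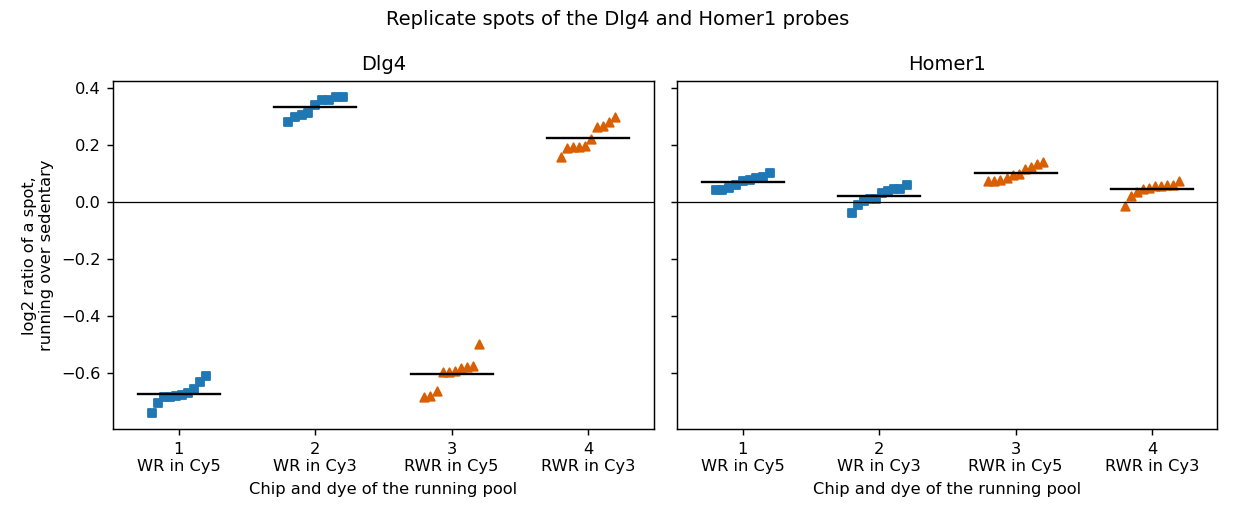
Log2 ratio of running over sedentary (y axis) of every used spot of the bright Dlg4 probe (left) and the Homer1 probe (right) on each chip, sorted by value, with a line at the mean. The Dlg4 spots form tight groups on opposite sides of 0 (-0.74 to -0.61 on chip 1 and 0.28 to 0.37 on chip 2), whereas the Homer1 spots of all chips lie between -0.04 and 0.14.

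The methods of the study name cutoffs of 1.5-fold and 0.75-fold and an error-model p under 0.01, without saying on how many chips the p has to pass. Here a probe was called when the fold and the p passed on each chip of the pair. By this rule 0 of 11 scaffold probes were called in WR and 0 of 11 in RWR. Of all probes 13 (0.0317%) were called in WR and 24 (0.0585%) in RWR, far fewer than the genes that the paper lists as regulated, so this rule is the stricter one. With the fold criterion alone the scaffold counts were again 0 and 0, where 225 (0.549%) and 608 (1.48%) of all probes passed. On single chips 1, 0, 2 and 0 of the 11 probes (chips 1 to 4) had a p under 0.01, against 3.92%, 7.82%, 6.9% and 6.28% of all probes. At such background shares a count of 0 among 11 probes is not a result particular to the scaffold.

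At the brightest probes the error of a pair mean was much the same for all 9 genes, 0.144 to 0.153 on the log2 scale. Which intervals crossed a cutoff thus followed mainly from the means. For 7 of the 9 genes the whole interval lay between 0.75-fold and 1.5-fold in WR, and for 7 of 9 in RWR. The same held for 5293 of 5928 named genes above background in WR and 5321 of 5927 in RWR, at their brightest probes. This count is thus not particular to the scaffold. Of the 9 scaffold genes Dlg1 and Dlg4 were the exceptions in both, with lower bounds of 0.739-fold and 0.725-fold in WR and 0.635-fold and 0.717-fold in RWR. For these genes a level under 0.75-fold thus lay within the error-model interval, which does not hold the full split between the chips of a pair.

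The direction was the same on both chips of a pair for 1 of 9 genes in WR, Homer1 (higher). Of the probes above background 14.5% were higher and 13.9% lower on both WR chips. In RWR it was the same for 4 of 9 genes, Homer1 and Shank3 (higher) and Dlg1 and Dlg2 (lower), where 16.7% of those probes were higher and 16.2% lower on both. For the rest, the chips of a pair lay on opposite sides of 0. In both comparisons Dlg1, Dlg3, Dlg4 and Dlgap1 read lower on the chip with running in Cy5 than on its partner, and Shank1, Shank2, Shank3 and Homer1 read higher. Dlg2 read lower on that chip in WR, and in RWR its chips were almost equal.

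The median log2 ratio over the 9 genes was 0.03 in WR (range -0.17 to 0.09) and -0.02 in RWR (range -0.36 to 0.07). Over the probes above background it was 0.0028 and 0.0020. The median absolute log2 ratio was 0.08 and 0.05 for the scaffold genes and 0.05 and 0.06 for the probes above background. The RWR median of the scaffold genes turned to 0.01 with normexp and to 0.02 with no background correction before loess, and to 0.00084 with chip 3 left out.

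**Figure D4:**
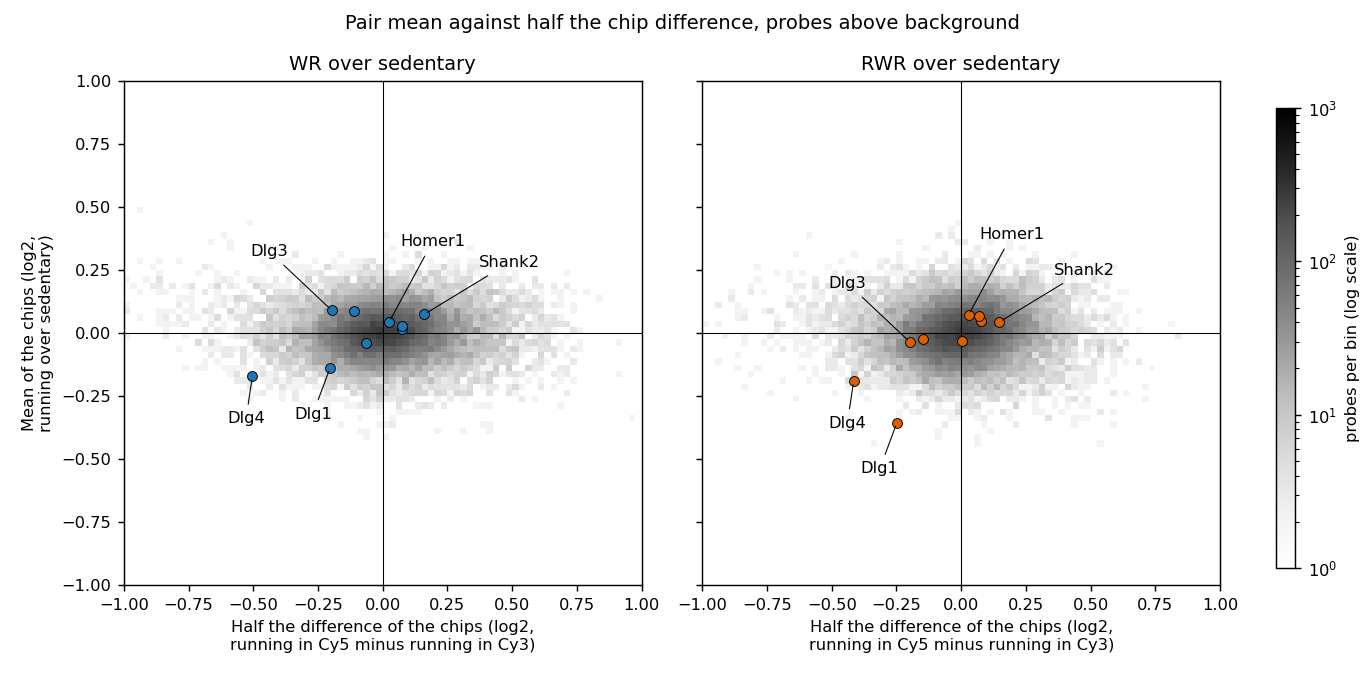
Mean log2 ratio of the chips of a pair (y axis, running over sedentary) against the distance of the Cy5 chip from that mean (x axis, log2) for the probes above background in WR (left) and RWR (right), shaded by probes per bin on a log scale, with the brightest probe of each scaffold gene as a point. The shaded cloud is wider along the dye axis than along the mean, Dlg4 sits far to its left in both panels, and Dlg1 lies at its lower edge in RWR; 102 probes in WR and 89 in RWR fall outside the axes.

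WR and RWR never shared a chip. Their difference was therefore taken between chips of the same dye orientation, chip 3 minus chip 1 and chip 4 minus chip 2, where a dye effect of fixed size drops out. These differences correlated little between the orientations over the probes above background (r = 0.076). Dlg1 was lower in RWR than in WR by both, -0.26 with running in Cy5 and -0.17 with running in Cy3 (mean -0.22), and 4.13% of the probes above background had a lower mean. With the loess alternatives the mean was -0.15 and -0.08.

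Dlg3 was also lower in RWR than in WR in both orientations (-0.13 and -0.13), as was Dlgap1 (-0.15 and -0.08). Of the probes above background 11.2% and 13.3% had a lower mean than Dlg3 (-0.13) and Dlgap1 (-0.11). With loess after normexp and after no background correction, Dlgap1 shrank to -0.05 and -0.05, while Dlg3 was at -0.19 and -0.15. Shank2 had small negative differences in both orientations (-0.04 and -0.02), which turned to 0.0097 on average with the median over its probes.

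On the other side, Shank1 (0.03 and 0.03), Shank3 (0.04 and 0.05) and Homer1 (0.03 and 0.02) were higher in RWR than in WR in both orientations. With the loess alternatives Shank1 grew to 0.09 and 0.10, Shank3 was at 0.06 and 0.06, and Homer1 at 0.02 and 0.02. Dlg2 (0.07 and -0.06) and Dlg4 (0.07 and -0.11) changed sign between the orientations. In this comparison 28.1% of the probes above background were higher and 28.9% lower in both orientations, so agreement between the orientations was common on these chips. The median difference over the 9 genes was -0.02.

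The scaffold was set beside 60 other genes of the postsynaptic side, of which 46 could be named and 44 were above background in both dyes on all chips. None of the 46 was called in WR or RWR. By fold alone 0 passed in WR and 1 in RWR, against 0.549% and 1.48% of all probes. It was Cit, the RhoA-binding kinase citron (log2 ratios -0.48 and -0.71), named here after its values were seen, and in the RWR pool its signal on chip 4 did not clear the background. The 46 genes had a median of 0.04 in each comparison, with 13 higher and 3 lower on both chips in WR and 13 higher and 6 lower in RWR. Of the probes above background 14.5% were higher and 13.9% lower on both chips in WR, and 16.7% and 16.2% in RWR. How far the counts depart from these shares was not tested.

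In WR the highest of the genes above background was Camk2b, the beta subunit of the calcium/calmodulin kinase that is abundant at the synapse, with a mean of 0.16 (chips 0.12 and 0.20). It was followed by Cnksr2 at 0.13, a MAGUK-binding adaptor of Ras signalling, and Ddn (dendrin) at 0.11. These 3 were higher on both chips. Nlgn3, a neuroligin that binds PSD-95, was lowest at -0.08, but its chips were 0.30 and -0.45. Synpo, the actin-binding protein of the spine apparatus, was at -0.07 and Nsf, the ATPase of membrane fusion, at -0.05, both lower on both chips.

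In RWR the highest was Arc, the immediate-early gene of activity-dependent AMPA receptor endocytosis, with a mean of 0.21 (chips 0.30 and 0.12). Begain, a partner of PSD-95, was at 0.20 (chips 0.32 and 0.07) and Grip2, an AMPA receptor-binding protein, at 0.15 (chips 0.37 and -0.08). The lowest were Nsf at -0.14, Pick1, another AMPA receptor-binding protein, at -0.14, and Kalrn, the Rac activator kalirin, at -0.11, each lower on both chips. None of these values passed the fold criterion.

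By layer, the medians of the neighbours stayed near 0. They were 0.02 in WR and -0.0053 in RWR for 6 MAGUK relatives and adaptors, 0.04 and -0.03 for 5 other SAPAP and Homer genes, and 0.07 and 0.06 for 5 adhesion genes. Kinases and small GTPase regulators (9 genes, a list that also holds Ddn and Nos1, which are neither) were at 0.0064 and 0.03. Actin and spine genes (10 genes) were at 0.06 and 0.06, AMPA receptor partners (9 genes) at 0.03 and 0.08, and 2 inhibitory scaffold genes at 0.04 and 0.02. Dlg1 in RWR (-0.36) lay below the lowest value of every one of these groups except kinases and small GTPase regulators, which hold Cit.

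**Figure D5:**
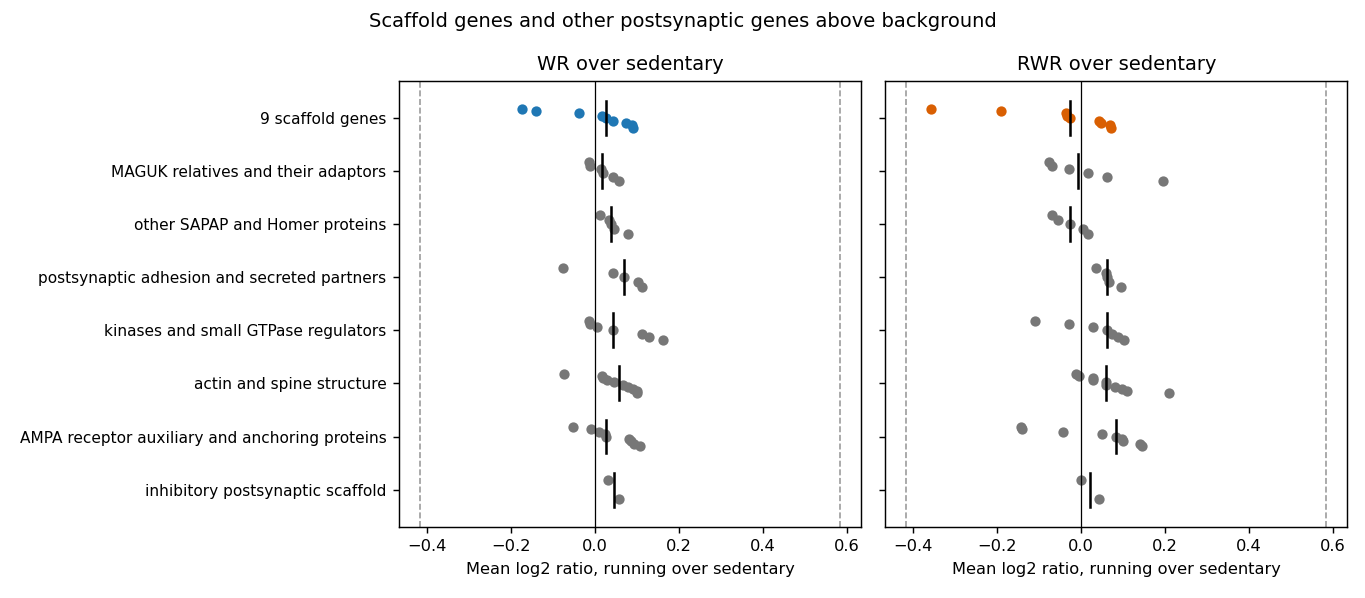
Mean log2 ratio of running over sedentary (x axis) in WR (left) and RWR (right) of the 9 scaffold genes (coloured points) and of the 44 other postsynaptic genes above background (grey points), with a vertical bar at the median of the plotted genes of each group and dashed lines at 1.5-fold and 0.75-fold. Dlg1 (-0.36) and Dlg4 (-0.19) lie apart to the left of the scaffold genes in RWR, and no point reaches a dashed line.

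The genes whose ratios over the 4 chips were most like those of each member were found by Euclidean distance among 5927 named genes above background. Over 4 chips from shared pools this likeness holds the dye effect as well. Dlg1 had 5 genes within a distance of 0.2, led by Gna12 (0.140), Nxph3 (0.150) and Hapln2 (0.166), and Dlg4 had 2, S100a6 and Nrtn (0.198 each). Homer1 had 1646 such genes, with Tceal8 nearest (0.019), and Dlg2 had 1825. Dlg1 and Dlg4 were thus in sparsely filled patterns, and Homer1, Dlg2, Shank1 (1654 genes) and Shank3 (1519 genes) in the common one of little change.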

How the data were processed

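RNA pools of rat hippocampus were measured on 4 two-colour Agilent 4x44K arrays. The intensity values deposited by the authors are processed signals of Agilent Feature Extraction 11.0.1.1 (per the file headers), background-corrected and dye-normalised, together with a log10 ratio of Cy5 over Cy3, its error, and an error-model p-value for each spot, deposited in the same files. A deposited table of the series holds the log10 ratio of the same processed signals and was used as an alternative. Accessions were matched to RefSeq symbols. From these values the log10 ratio was converted to log2, turned to running over sedentary, and averaged over the spots of a probe without outlier flags. For a p the median over spots was taken. A gene was represented by its brightest probe. The cutoffs follow the study's methods, and requiring the p on both chips was a choice made here. On each chip the ratio of 1384 to 2825 spots had been set to 0, and these spots are part of the shares over all probes. The deposited p follows from ratio and error at 100% of the other 40554 to 41995 spots per chip (tolerance 0.001). The interval of a pair mean is 1.96 times its propagated error. Well above background is the software's own spot criterion. The members and gene lists were chosen with earlier results of these data known. All members, genes with called probes, and the 3 highest and 3 lowest other postsynaptic genes per comparison were named, with the 3 genes nearest to a member. Alternatives used limma 3.58.1 in R 4.3.3 (normexp with an offset of 50, or no correction, then loess), chips centred on their medians, dim probes filtered out, other p and fold criteria, the median over probes, and each chip left out. RWR minus WR was added after the values had been seen. One listed marker is not reported here and was left out of its list. Scripts were tested on simulated data with planted changes well beyond the fold cutoffs and with a smaller chip split and error than on these chips. That test does not show how the calls behave near the cutoffs or at the observed dye effect. With 1 pool per group the spread between rats is unknown, and more arrays of the same pools would not give it.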

Additional observations from a re-analysis of the deposited data

Results flagged for a closer look

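Among the postsynaptic genes described, Kalrn, which encodes the Rac activator kalirin, read above sedentary on both WR chips and below it on both RWR chips. The log2 ratio of running over sedentary was 0.0074 and 0.08 on the WR chips (mean 0.04) and -0.13 and -0.09 on the RWR chips (mean -0.11). RWR minus WR was -0.15, and this difference was not tested, since each group is 1 pool. The 95% error-model intervals of both means spanned 0. Dlgap4 (0.05 and 0.02 in WR, -0.04 and -0.01 in RWR) and Sipa1l1 (-0.01 and -0.0097 in WR, 0.07 and 0.05 in RWR), named here after their values were seen, also read on opposite sides of 0 in the 2 groups. How many of all probes did so was not counted. Of the probes above background, 14.5% were higher and 13.9% lower on both chips in WR, and 16.7% and 16.2% in RWR.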

How the results depend on the processing

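The number of called scaffold probes was 0 in WR and in RWR under every alternative that kept both chips, a p required on 1 chip only among them. With a chip left out it was 0 to 1 in WR (1 without chip 2, Dlg4, lower) and 0 to 2 in RWR (2 without chip 4, Dlg1 and Dlg4, lower). The median over the 9 genes ranged from -0.024 to 0.026 in WR with a chip left out. In RWR it was 0.014 with normexp and 0.015 with no background correction, both with loess, and -0.030 to 0.00084 with a chip left out. Of 54 values of single genes under the other settings, 54 in WR and 51 in RWR moved by less than the spread of the chips, the 3 exceptions being Dlg2, and 3 in WR and 4 in RWR changed sign. Many of these values could hardly move. All scaffold probes passed the background filter, the series table holds the same ratios, chips 1 and 2 had medians of 0, and most genes had 1 probe. The spread of the chips also holds the dye effect and is wide. Shank2 in WR went from 0.08 to -0.08 within it. With a chip left out, 8 of 18 values in WR and 5 of 18 in RWR changed sign. Of 45 values of RWR minus WR, 15 moved by more than the spread between the orientations and 1 changed sign, and the cause was not tested. No paired analysis was possible because each group is 1 pool and the result comes from no test.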
